A study of Apis mellifera with 12 samples.

Results

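The miR-279 and miR-996 seed family is a group of insect microRNAs (miRNAs) that share the same seed, the bases near the 5' end that pair with target messenger RNAs. Its signal in worker fat body of the honey bee (Apis mellifera) was read through the 4 reporters ame-miR-279, ame-miR-279b, ame-miR-279c and ame-miR-996. They were chosen by name from the 168 bee miRNA reporters of the array. The 12 samples were pools of small RNA, 6 of them from bees in which double-stranded RNA (dsRNA) targeted vitellogenin, labelled dsRNA-Vg, and 6 from sham controls whose dsRNA targeted green fluorescent protein, labelled dsRNA-GFP. Vitellogenin is a yolk precursor protein that the fat body, the insect tissue of nutrient storage and protein secretion, also makes in sterile workers.

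Every bee of both groups had received dsRNA soon after emergence, in the abdomen under segment 5, as 2 µL at 10 µg/µL. All were sampled as 15-day-old adults, which the labels call foragers. Each pool held equal amounts of RNA (400 ng) from 5 bees, so the spread between bees of 1 pool is averaged out and n counts pools. According to the design text, every pool is a biological sample made of bees of its own. The tissue was the abdominal carcass lined with fat body, which also holds muscle, nerve and epidermis. No uninjected bees were among the samples, and no reporter for vitellogenin messenger RNA was analysed here.

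In the fruit fly, miR-279 and miR-996 are best known from the nervous system, where they keep carbon dioxide-sensing neurons from forming on the mouthparts by repressing the transcription factor nerfin-1. Fly miR-279 also limits JAK/STAT signalling in the ovary when the border cells are specified. Members of a seed family can repress the same messenger RNAs, so the family's output in a tissue depends on which members are present. No role in bee fat body is assigned to any member here.

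The mature sequences that the reporters were built against are shown because they define the family and bear on how separately the members can be read. They are from the scanner files, 5' to 3', with the seed (bases 2 to 8) in capitals.
miR-279: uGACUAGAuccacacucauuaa
miR-279b: uGACUAGAucgaaauacucguccc
miR-279c: uGACUAGAgucacacucgucca
miR-996: uGACUAGAuacauacucgucu
All 4 begin with the same 8 bases. No other reporter of the 168 held the 7-base seed anywhere in its target sequence. Counted from the 5' end and without gaps, miR-279c matched miR-996 at 17 of 21 positions and miR-279 at 17 of 22. By this count miR-279b was the most divergent, with 11 of 22 positions matching miR-279c and 13 of 22 matching miR-279. Relative to miR-279 and counted from its 5' end, miR-279c differed by U9G, C10U, A18G, U20C and A21C, and miR-996 by C10A, C13U, A18G, U20C and A21U. miR-279b, miR-279c and miR-996 shared the 7-base run acucguc towards the 3' end, which miR-279 and the other reporters lacked. The run starts further from the 5' end in miR-279b than in miR-279c and miR-996, so the ungapped count does not align it. The closest reporter outside the family matched a member at 12 positions by that count.

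All 4 reporters were assigned to a miRNA gene by name in RefSeq's gene table for Amel_HAv3.1 (miR-279 to Mir279a). The assignment was not checked by sequence. Mir279a and Mir996 lay on the same linkage group with 0 other gene starts between them, both overlapping the protein-coding gene model LOC724926. Mir279b and Mir279c lay on other linkage groups, each overlapping a different protein-coding gene. The table also lists Mir279d, which had no reporter on the array and was not analysed here. Coordinates are left out because no build is named in the files.

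The reporters fell into a bright pair, miR-279c and miR-279, and a dim pair, miR-996 and miR-279b. In the deposited value table, a linear intensity per miRNA and pool, miR-279c had 1467 at the lowest, 2299 at the median and 3066 at the highest in the 6 dsRNA-Vg pools, against 1151, 1950 and 2820 in the 6 dsRNA-GFP pools. miR-279 had 861, 1381 and 1638 in dsRNA-Vg pools, against 721, 1213 and 1710 in dsRNA-GFP pools. For both reporters the ranges of the groups overlapped over most of their length.

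miR-996 had 22 at the lowest, 42 at the median and 54 at the highest in dsRNA-Vg pools, against 22, 47 and 80 in dsRNA-GFP pools. miR-279b had 23, 37.5 and 47 in dsRNA-Vg pools, against 25, 33.5 and 84 in dsRNA-GFP pools. The dim pair thus lay near the median of all 168 reporters, which was 24 to 41.5 per array.

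**Figure D1:**
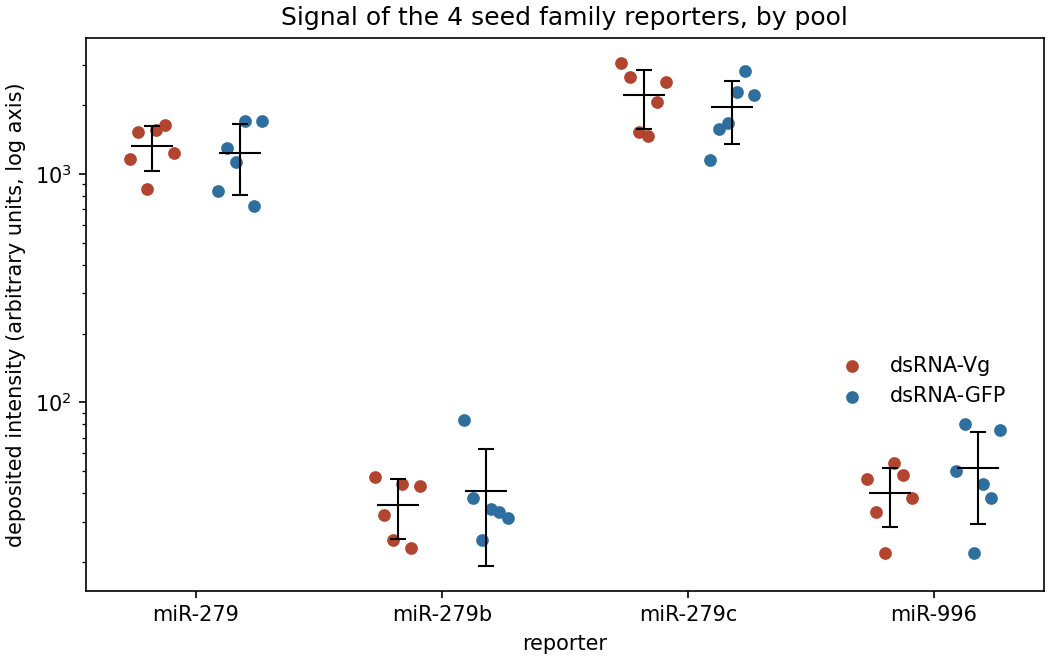
Deposited intensity (log axis, arbitrary units) of the 4 reporters in each pool, with dsRNA-Vg left of dsRNA-GFP. Points are pools, and black bars are the mean ± SD of 6 pools. miR-279c and miR-279 lie at 721 or above in every pool, miR-279b and miR-996 at 84 or below, and the groups overlap for each reporter.

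In order of signal, miR-279c was brighter than miR-279 on 11 of 12 arrays, the exception being dsRNA-Vg pool 4 with 1467 against 1555. Hybridisation strength varies from probe to probe, so this is an order of signals and not of amounts of the miRNAs. miR-279c ranked 13th to 19th of the 168 reporters per array and miR-279 ranked 16th to 24th. miR-996 ranked between 46 and 120 and miR-279b between 55 and 102, and neither was steadily the brighter, with miR-279b above miR-996 on 5 of 12 arrays.

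miR-279c gave 60.6% ± 8.47 of the family's summed intensity in dsRNA-Vg pools and 59.2% ± 9.50 in dsRNA-GFP pools (SD, n = 6 each). miR-279 gave 37.3% ± 8.16 in dsRNA-Vg pools and 37.8% ± 8.86 in dsRNA-GFP pools. miR-996 and miR-279b each gave between 0.608% and 3.95% in any pool. miR-279c was above 47% of the family's signal on every array and reached 78.1% in dsRNA-GFP pool 5.

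The family as a whole took 2.22% ± 0.43 of all miRNA signal in dsRNA-Vg pools and 2.03% ± 0.46 in dsRNA-GFP pools (SD, n = 6 each). The difference of 0.187 percentage points was smaller than the spread between pools. A two-sided exact permutation test gave p = 0.474, where the smallest possible p is 0.00216. On scanner intensity before normalization between arrays the difference was 0.0564 percentage points (exact permutation p = 0.753). Single pools ran from 1.53% to 2.64% after dsRNA-Vg and from 1.33% to 2.51% after dsRNA-GFP.

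The dim pair lay close to the background of the arrays. On the scanner, the median spot of miR-279c was 3.32 to 14.9 times the median empty spot of its array in dsRNA-Vg pools, against 2.30 to 6.69 times in dsRNA-GFP pools. For miR-279 the range was 2.43 to 9.36 times after dsRNA-Vg and 1.89 to 6.39 times after dsRNA-GFP. For miR-996 it was 1.03 to 1.18 times after dsRNA-Vg and 0.987 to 1.41 times after dsRNA-GFP, and for miR-279b 1.03 to 1.17 times after dsRNA-Vg and 0.96 to 1.20 times after dsRNA-GFP. No array put a median spot of the dim pair as far above its empty spots as the lowest ratio of the bright pair. The highest ratios of miR-279c and miR-279 were both from dsRNA-Vg pool 2, whose empty spots had the lowest median of all arrays, 150.2. The median spot of miR-279c read 2245 there, against 2710 in dsRNA-GFP pool 2, where the ratio was 6.69. The ratios thus also move with the empty spots and are not read as a difference between the groups.

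A reporter counted as detected when 50% or more of its 18 spots read above the 95th percentile of the empty spots on the same array. miR-279 and miR-279c were detected on all 12 arrays, each with 18 of 18 spots above that level. miR-996 was detected on 4 of 6 dsRNA-Vg and 4 of 6 dsRNA-GFP arrays, and miR-279b on 3 of 6 dsRNA-Vg and 4 of 6 dsRNA-GFP arrays. On dsRNA-Vg pool 6, 0 of 18 spots of miR-996 and 1 of miR-279b exceeded the level, and on dsRNA-GFP pool 4, 0 of 18 spots of either dim reporter did. On those arrays 44 and 37 of the 168 reporters were detected, against up to 168 on others, so detection also moved with the array.

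**Figure D2:**
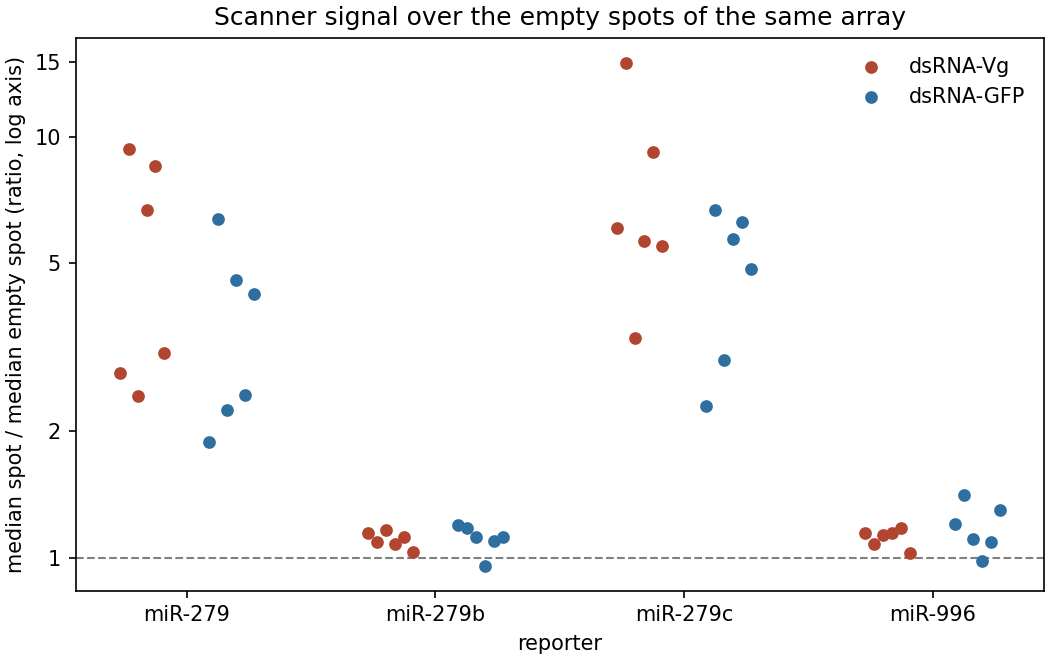
Median of the 18 spots of a reporter over the median empty spot of the same array (ratio, log axis), with dsRNA-Vg left of dsRNA-GFP and 1 point per pool. The dashed line at 1 is the level of the empty spots. miR-279b and miR-996 lie between 0.96 and 1.41, and miR-279 and miR-279c lie at 1.89 or above.

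In the deposited table the miR-996 reporter read 1.24% to 5.08% of the miR-279c reporter and 1.96% to 6.15% of the miR-279 reporter on the same array. miR-996 was not detected on 4 of the 12 arrays. The miR-279b reporter read 1.40% to 10.0% of the miR-279 reporter. Cross-hybridisation, the reading of one member by the probe of another, was not tested.

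Setting the dsRNA-Vg pools against the dsRNA-GFP pools addresses whether targeting vitellogenin alters fat body miRNAs. None of the 4 members passed the threshold, a limma adjusted p under 0.05 over the 127 reporters that were detected on at least 6 arrays. Over all 127, 2 reporters passed (1.57%), miR-3739 and miR-3776, both higher after dsRNA-Vg, and 18 had an unadjusted p under 0.05 (14.2%). The lowest unadjusted limma p among the members was 0.354, for miR-996, so 0 of 4 members were also called at an unadjusted p under 0.05. The deposited table gave 2 calls (1.57%) as well, none of them a member.

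On the normalized log2 scale, miR-279 averaged 9.88 ± 0.33 in dsRNA-Vg pools and 9.77 ± 0.58 in dsRNA-GFP pools (SD, n = 6 each). The log2 fold change was 0.10 (SE 0.26, limma adjusted p = 0.868), which is 1.08-fold with a 95% confidence interval of 0.730 to 1.58. The difference was smaller than the spread between pools, and the interval leaves room for a change in either direction.

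miR-279c averaged 10.43 ± 0.37 in dsRNA-Vg pools and 10.44 ± 0.29 in dsRNA-GFP pools (SD, n = 6 each). The log2 fold change was -0.01 (SE 0.18, limma adjusted p = 0.974), or 0.994-fold with an interval of 0.759 to 1.30. With each array scaled to its median in place of quantile normalization the value was 0.54 (limma adjusted p = 0.612). In the deposited table it was 0.19 (SE 0.25, limma adjusted p = 0.801).

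miR-996 averaged 7.12 ± 0.11 in dsRNA-Vg pools and 7.22 ± 0.24 in dsRNA-GFP pools (SD, n = 6 each), a difference of -0.10 on the log2 scale (SE 0.10, limma adjusted p = 0.686). miR-279b averaged 7.06 ± 0.07 in dsRNA-Vg pools and 7.08 ± 0.13 in dsRNA-GFP pools (SD, n = 6 each), a difference of -0.03 (SE 0.06, limma adjusted p = 0.857). An offset of 50 was added before the logarithm. In the deposited table, on the log2(intensity + 1) scale, the fold for miR-996 was 0.819 with an interval of 0.517 to 1.30 (limma adjusted p = 0.721), and that for miR-279b 0.917 with an interval of 0.603 to 1.40 (limma adjusted p = 0.929).

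**Figure D3:**
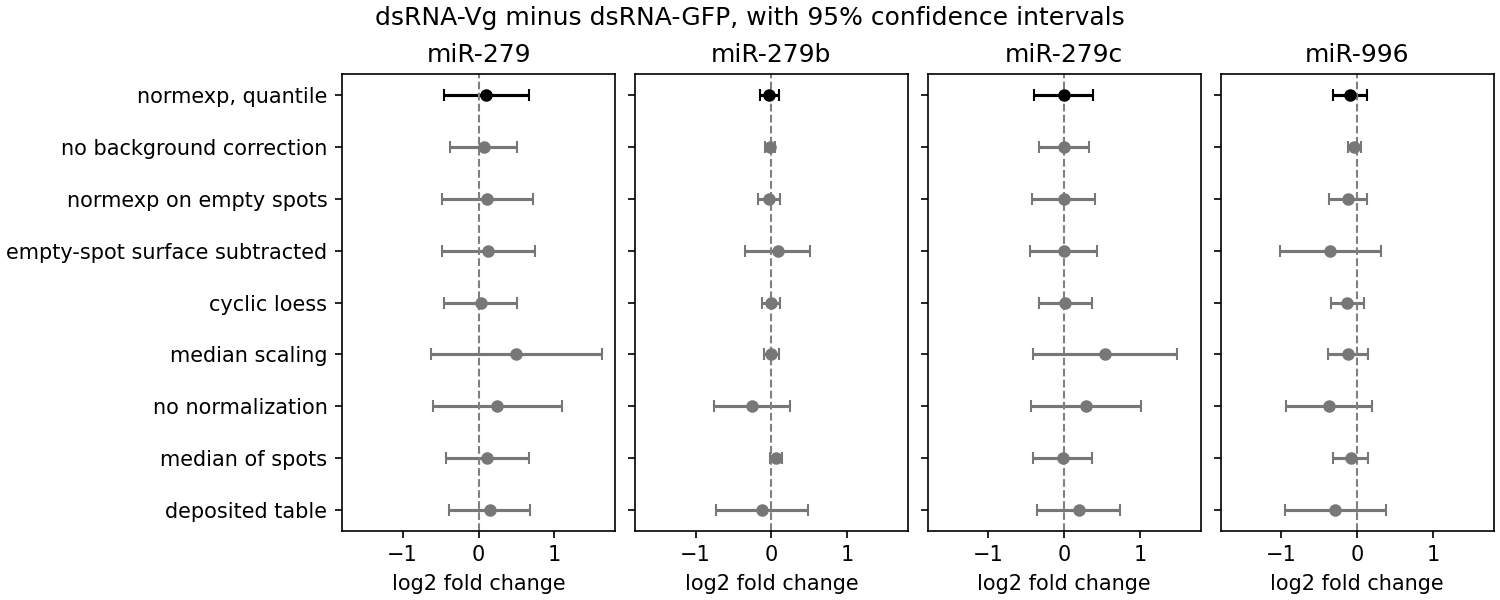
Log2 fold change (dsRNA-Vg minus dsRNA-GFP) of each reporter with its 95% confidence interval, under 9 ways of processing the arrays, from 6 pools a group. The black point is the result given in the text. Every interval includes 0, and the intervals of the dim reporters are wider with the subtracted surface, without normalization and in the deposited table than for the black point.

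Over the 4 members the median log2 fold change was -0.02, with 1 positive and 3 negative values, beside a median of -0.01 over all 127 reporters tested. Without normalization between arrays the median of all 127 was itself -0.22, and the bright pair then had 0.25 and 0.29 (miR-279 and miR-279c) while the dim pair had -0.25 and -0.37 (miR-279b and miR-996). None of the 4 passed there either.

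Log2 ratios between 2 reporters on the same array were taken after quantile normalization, which is not a scaling by 1 factor per array, so they depend on the normalization. All 6 pairs were tested by exact permutation of the pools, two-sided. The log2 ratio of miR-279 over miR-279c averaged -0.55 ± 0.48 in dsRNA-Vg pools and -0.67 ± 0.49 in dsRNA-GFP pools (SD, n = 6 each, exact permutation p = 0.68, adjusted 0.826). The ratio of miR-279 over its genomic neighbour miR-996 averaged 2.76 ± 0.29 in dsRNA-Vg pools and 2.56 ± 0.48 in dsRNA-GFP pools (SD, n = 6 each, exact permutation p = 0.392, adjusted 0.826). The other 4 pairs differed by -0.02 to 0.13 between the groups (exact permutation p 0.565 to 0.942). Without normalization between arrays the differences were larger, at 0.66 for miR-279c over miR-996 (exact permutation p = 0.141), 0.62 for miR-279 over miR-996 (exact permutation p = 0.216), 0.50 for miR-279 over miR-279b (exact permutation p = 0.381) and -0.54 for miR-279b over miR-279c (exact permutation p = 0.268), each with an adjusted p of 0.504. Of the 6 pairs, 5 include miR-996 or miR-279b, which were not detected on 4 and 5 of the 12 arrays, so those ratios say little of the balance between members.

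**Figure D4:**
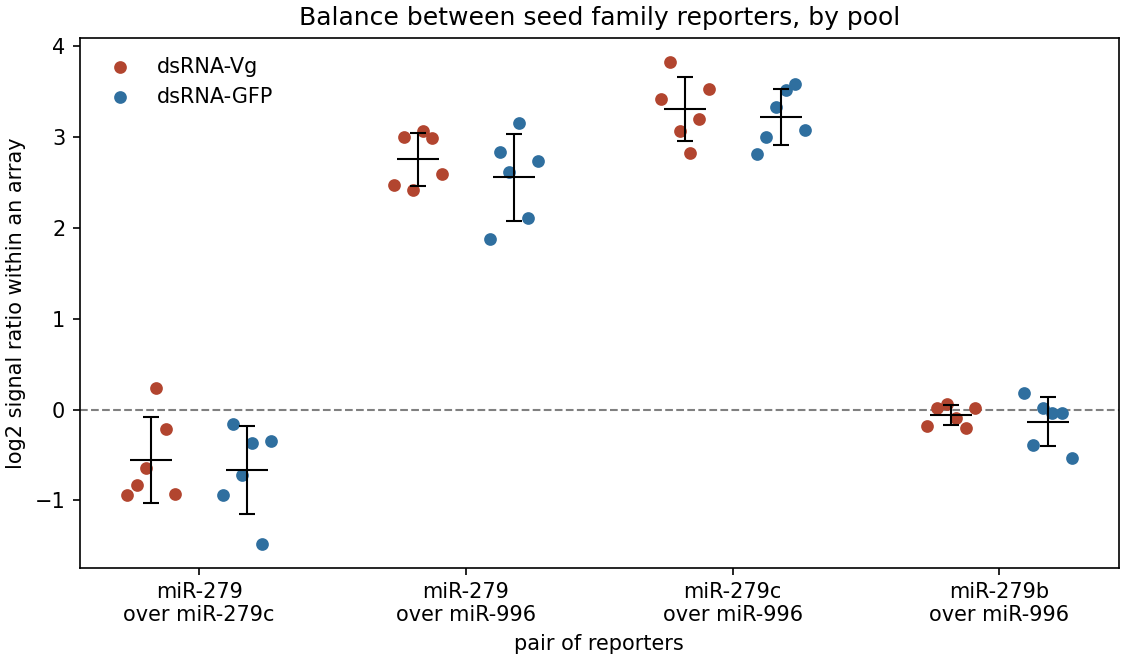
Log2 ratio of the signals of 2 reporters on the same array, for 4 of the 6 pairs, with dsRNA-Vg left of dsRNA-GFP. Points are pools, bars are the mean ± SD of 6 pools, and the dashed line marks equal signal. The groups overlap for each pair, and dsRNA-Vg pool 4 is the only pool with miR-279 above miR-279c.

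For the bright pair, pools of the same group differed more than the group means did. miR-279 spread 1.90-fold from the lowest to the highest dsRNA-Vg pool and 2.37-fold over the dsRNA-GFP pools in the deposited table, and miR-279c spread 2.09-fold and 2.45-fold. On the normalized log2 scale the SD between pools of a group was 0.47 for miR-279, the 11th highest of the 127 reporters tested, and 0.33 for miR-279c, the 20th highest, against a median of 0.10. Among the 35 reporters detected on all arrays, whose median SD was 0.30, miR-279 ranked 9th and miR-279c 15th.

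In the deposited table the dim pair had the larger spread, with a log2 SD of 0.44 for miR-279, 0.45 for miR-279c, 0.52 for miR-279b and 0.58 for miR-996, beside a median of 0.42 over the 127. By that SD miR-279 ranked 58th and miR-279c 55th of the 127, so their ranks depend on the processing. For the dim pair single spots weighed on single pools. In dsRNA-Vg pool 1, 1 spot of miR-996 read 1126, against at most 507 for the others. In dsRNA-GFP pool 1, 2 of the 18 spots of miR-279b read 1155 and 834, against at most 667 for the others. With the median of the spots in place of the mean, the log2 fold change of miR-279b was 0.06 (SE 0.03, limma adjusted p = 0.372), the opposite sign to that from the means.

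Whether the members varied together was tested on deviations from the group means over the 12 pools, for the 6 pairs, with permutations within the groups. On the normalized log2 scale miR-279 and miR-996, the genomic neighbours, had the highest correlation. Pearson r was 0.59 (permutation p = 0.123, adjusted 0.592) and Spearman rho was 0.62 (permutation p = 0.0931, adjusted 0.558). Without the 2 pools farthest out in miR-279 (dsRNA-GFP pools 1 and 5), r was 0.60. Within the groups r was 0.47 in dsRNA-Vg pools and 0.62 in dsRNA-GFP pools. Without normalization between arrays r was 0.37 (adjusted permutation p = 0.528), and 0.13 without dsRNA-GFP pool 2 and dsRNA-Vg pool 3. Within the groups it was then -0.31 in dsRNA-Vg pools and 0.62 in dsRNA-GFP pools. In the deposited table r was 0.50 (adjusted permutation p = 0.801), and 0.29 without dsRNA-GFP pool 5 and dsRNA-Vg pool 3. Within the groups it was there 0.75 and 0.38. The relation did not pass the adjustment, and miR-996 was detected on 8 of 12 arrays only.

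miR-279 and miR-279c, the bright pair, had r = 0.32 (permutation p = 0.296, adjusted 0.592) and rho = 0.15 (permutation p = 0.66, adjusted 0.786), and r = 0.26 without dsRNA-GFP pools 1 and 5. In dsRNA-GFP pool 5 they went opposite ways: miR-279 had its lowest deposited intensity of all pools there, 721, while miR-279c had 2820, the highest of the dsRNA-GFP pools. In dsRNA-GFP pool 1 both were low, at 840 for miR-279 and 1151 for miR-279c. The other 4 pairs had r of -0.42 to 0.26 with adjusted permutation p of 0.592 to 0.947. Before normalization between arrays, miR-279 and miR-279c had r = 0.74 (permutation p = 0.0111, adjusted 0.0334) and rho = 0.68 (adjusted permutation p = 0.0843), with r = 0.58 without the 2 pools farthest out. There miR-279b and miR-996 had r = 0.88 (permutation p = 0.00128, adjusted 0.00768) and rho = 0.83 (adjusted permutation p = 0.0226), with r = 0.93 without 2 pools. The deposited table gave 0.15 and 0.36 for these pairs, so the call depends on the scaling of the arrays. Both dim reporters lay at 0.96 to 1.41 times the empty spots, whose medians ran from 150.2 to 491.3 over the arrays. Whether that shared background gives the relation of miR-279b with miR-996 was not tested.

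**Figure D5:**
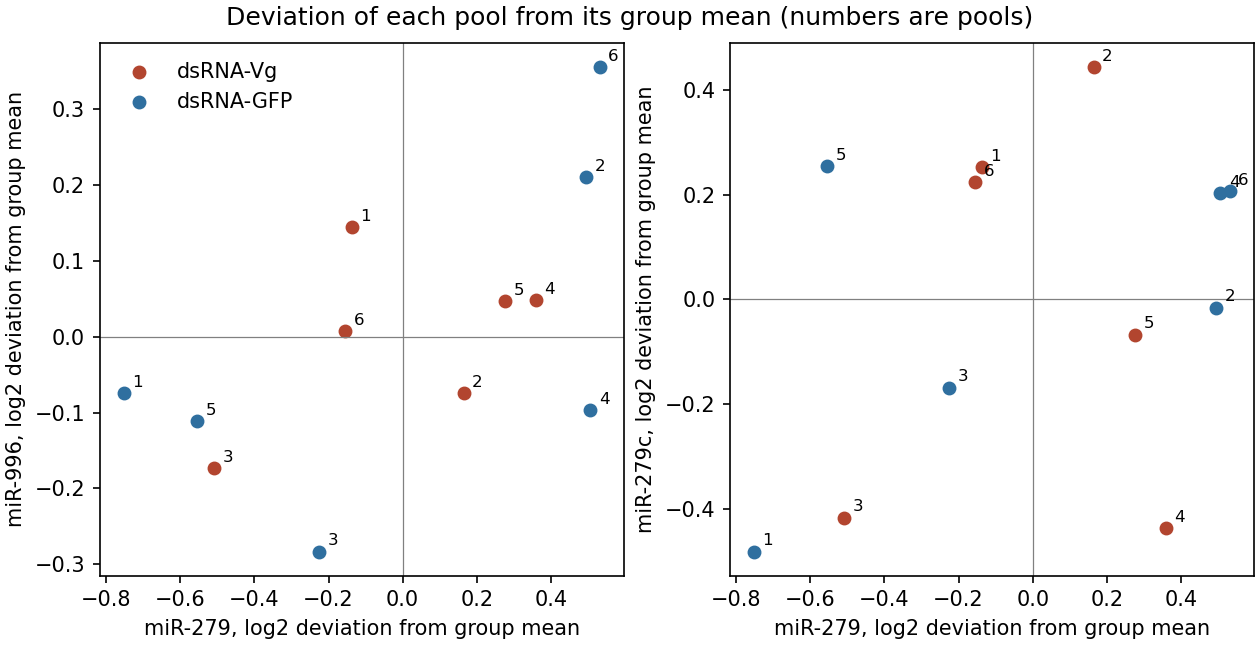
Log2 deviation of each pool from its group mean, for miR-279 (x axis) against miR-996 (left) and miR-279c (right), numbered by pool. dsRNA-GFP pool 5 is low for miR-279 and high for miR-279c, and the pools low in both bright reporters are dsRNA-Vg pool 3 and the controls dsRNA-GFP 1 and 3.

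The reporters whose deviations followed each member most closely over the 12 pools are given as a description, since all values share the arrays and the normalization. miR-279 was most like miR-305 (r = 0.85), miR-3793 (0.82) and miR-9a (0.80), and in the deposited table these had 0.82, 0.67 and 0.60. miR-996 was most like miR-79 (0.86), bantam (0.85), a growth-promoting miRNA in the fly, and miR-305 (0.74), with 0.73, 0.89 and 0.61 in the deposited table. miR-279c was most like miR-3719 (0.88), miR-8 (0.88) and miR-307 (0.79), with 0.56, 0.53 and 0.75 in the deposited table. miR-279b was most like miR-3787 (0.88), miR-3753 (0.70) and miR-929 (0.69), each of which was detected on 6 arrays only. In the deposited table these had 0.81, 0.44 and 0.89, and miR-279b itself had an outlying value in dsRNA-GFP pool 1. miR-305 thus appeared in the lists of both miR-279 and miR-996. Among the 126 other reporters miR-996 ranked 16th in likeness to miR-279, and miR-279c ranked 36th.

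miRNAs of the fly Notch pathway boxes, short motifs in Notch target genes to which other seed families bind, were taken as a functional neighbour of the family in sense organ development. Of 6 tested, 0 passed the threshold, beside 1.57% of all 127 reporters, with a median log2 fold change of 0.02. The highest and lowest were 0.33 for miR-13b (SE 0.10, limma adjusted p = 0.145) and -0.20 for miR-13a (SE 0.06, limma adjusted p = 0.155). Among the lists of other tissues, 0 of 2 muscle, 0 of 3 gut, 0 of 5 nervous system, 0 of 4 epithelium and sense organ and 0 of 2 ovary reporters tested passed, and 0 of 6 for fat body. Beside 1.57% of all 127 reporters, nothing is read from these counts.

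The deposited intensities of the 7 nervous system reporters summed to 245 to 598 in dsRNA-Vg pools and 306 to 510 in dsRNA-GFP pools, and miR-124, the defining neuronal miRNA, had 31 to 141. Of the 7, miR-137 and miR-932 were detected on 5 arrays each, and levels of different probes cannot be compared. The gut reporters varied most between pools, with sums of 175 to 5412 after dsRNA-Vg and 223 to 6294 after dsRNA-GFP. The part of other tissues in the family's signal was not tested, and in pooled tissue fewer cells of a type and less RNA per cell cannot be told apart.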

How the data were processed

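Small RNA was extended with a poly(A) tail, tagged and stained with Cy3 by LC Sciences, per the labels' protocols, so each array has 1 colour. The deposited scanner files hold the median intensity and the pixel SD of each of 3968 spots, with 18 spots per miRNA and 628 empty spots, and no local background. The authors' deposited value table holds 1 linear intensity per miRNA and pool; the sources used here do not say how it was background-corrected, normalized or centred between arrays. Its column medians were 28, 24, 29.5, 26.5, 26.5 and 28.5 for dsRNA-Vg pools 1 to 6, and 41.5, 27, 29, 26, 29 and 35 for dsRNA-GFP pools 1 to 6.

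Scanner intensities were corrected with normexp (limma 3.58.1, R 4.3.3, offset 50, fitted over all spots), quantile normalized over the miRNA spots on the log2 scale, and averaged per reporter. Of 168 reporters, 127 were detected on at least 6 arrays and tested with lmFit and eBayes (group only, Benjamini-Hochberg, threshold 0.05), and 35 were detected on all 12. Empty spots had medians of 150.2 to 491.3, and the highest spot read 61540. The number of arrays limits the precision, and 0 arrays were duplicates. Ratios and shares were tested with exact permutations, and correlations with 100000 permutations (scipy 1.17.1). The fits were also run on simulated data with independent normal noise per reporter. That simulation leaves out the background and normalization of the arrays, so nothing is read from it here. Alternatives covered background correction, scaling, the filter, spot summaries, the replicate number as a block and each pool left out. Leaving out uneven spots (pixel SD over 30% of the median) was added after the data were seen.

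The members, lists and tests were chosen with earlier results of these data known. The miRNAs named are the 4 members, the 3 reporters most correlated with each, those past the threshold, and up to 4 of each fixed list.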

Additional observations from a re-analysis of the deposited data

Results flagged for a closer look

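In 30 groups of 6 pools, 3 held a pool far from the other 5, where chance gives about 1.5 if the groups are independent. All 3 concern miR-279b in dsRNA-GFP pool 1. The groups are not independent, because they reuse the same arrays as log2 intensities, deposited intensities, ratios and shares. The count of 3 is thus not read against 1.5. In that pool miR-279b had a log2 intensity of 7.33, against at most 7.08 in the other dsRNA-GFP pools, and a deposited intensity of 84, against at most 38. Its log2 ratio over miR-279c was -2.63 there, against at most -3.32. The 2 brightest of its 18 spots on that array read 1155 and 834, and with the median of the spots its log2 intensity was 7.06.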

How the results depend on the processing

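No member passed the threshold under any alternative. The log2 fold change of miR-279 was 0.028 to 0.50 over the 12 other settings, and that of miR-996 was -0.37 to -0.038 over the 11 it allowed. Only miR-279 and miR-279c could be tested among reporters detected on all 12 arrays. The sign changed for miR-279b with a subtracted surface of the empty spots (0.082) and with the median of spots (0.063). It changed for miR-279c with cyclic loess (0.013), median scaling (0.54), no normalization (0.29) and the deposited table (0.19). For the ratio of miR-279 over miR-279c it changed with median scaling (-0.038), no normalization (-0.038) and the deposited table (-0.039), and for miR-279b over miR-279c with the subtracted surface (0.091) and the median of spots (0.086). The cause was not tested. The count of called reporters was 1 with median scaling, with no normalization and among reporters detected on all 12 arrays, against 2. It was 3 with the subtracted surface, with the replicate number as a block and without dsRNA-GFP pool 5. Without normalization the correlations of miR-279 with miR-279c (0.74) and of miR-279b with miR-996 (0.88) passed, and that of miR-279b with miR-279c was 0.025.

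With single pools left out, the fold change ran from -0.046 to 0.21 for miR-279 (negative without dsRNA-GFP pool 1 or 5), from -0.054 to 0.022 for miR-279b (positive without dsRNA-GFP pool 1), from -0.10 to 0.079 for miR-279c (positive without any one of dsRNA-Vg pools 3 to 5 or of the control pools 4 to 6) and from -0.15 to -0.026 for miR-996. Ratios ran from -0.068 to 0.25 for miR-279 over miR-279b, -0.049 to 0.21 for miR-279 over miR-279c, -0.11 to 0.13 for miR-279b over miR-279c, -0.0099 to 0.13 for miR-279b over miR-996 and -0.015 to 0.19 for miR-279c over miR-996. The family's share differed by 0.0471 to 0.325 percentage points, and on scanner intensity before normalization by 0.0564 (exact permutation p = 0.753), against 0.187.

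In the labels, pools share only a number. Same-numbered pools correlated at -0.33 to 0.70, and 5 of 12 correlated best with their own number among 6 candidates in the other group. Whether 5 is more than chance gives was not tested. With the number as a block, 3 reporters were called, the members kept log2 fold changes of 0.10, -0.03, -0.01 and -0.10 (limma adjusted p 0.583 to 0.973), and the ratio of miR-279 over miR-996 still differed by 0.20 (exact paired permutation p = 0.406). Signal over background limits what can be said of miR-279b and miR-996.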
